A study of Mus musculus with 10 samples.

Results

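Axon guidance ligands and receptors were examined as a group in hypertrophied hepatic stellate cells (hypHSCs) and quiescent hepatic stellate cells (qHSCs). Members were taken by gene symbol, as the semaphorins, plexins, neuropilins, Eph receptors, ephrins, Slits, Robos, netrins, Unc5 receptors and *Dcc*. The symbol rule found 72 of the 25233 entries with a gene symbol, of which 35 are ligands, 34 are receptors and 3 match by name only. These 3 are *Plxna4os1*, an opposite-strand transcript of the *Plxna4* locus, *Unc50*, which encodes a Golgi membrane protein, and *Unc5cl*, which encodes a death domain protein. No measured value entered the choice of members.

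RNA was sequenced from 5 preparations of hypHSCs and 5 of qHSCs, all from C57BL/6J mice, which the study's methods give as male. The hypHSCs came from mice on CDAHFD, a high-fat diet that lacks choline and holds defined amino acids, which produces steatohepatitis and fibrosis: hypHSC 1 and 2 after 13 weeks of diet at 19 weeks of age, and hypHSC 3, 4 and 5 after 12 weeks at 18 weeks of age. The qHSCs came from mice on a standard diet, aged 36 weeks for qHSC 1, 2 and 5 and 34 weeks for qHSC 3 and 4. Livers were digested in situ and cells were taken from a density gradient and sorted, on green fluorescence for hypHSCs and on blue fluorescence for qHSCs. Diet, age, digestion and sorting gate changed together between the groups and cannot be told apart. The hypHSC preparations were chosen for RNA integrity from a larger number that exceeded the number of mice, and the labels do not name the mouse. The n of each group therefore counts preparations, and p-values measure the spread between them.

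Semaphorins signal through plexins, and the secreted class 3 semaphorins need a neuropilin as co-receptor. Ephrins are bound to the membrane and act on Eph receptor tyrosine kinases of a neighbouring cell, Slits act on Robos, and netrins attract through *Dcc* and repel through Unc5 receptors. Outside the nervous system the same proteins shape vessels and epithelia and guide leukocytes, and neuropilin 1 also binds VEGF.

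For 25 of the 29 members that differed between the groups, a start of the gene could be placed on GRCm39 with the promoter sequences of RefSeq, 4 of the higher and 21 of the lower members. This start was within 1000 bases of the listed 5 prime end of the gene for 24 of the 25. For *Sema4d*, a higher member whose window held no GC box, it lay 36995 bases away. The 250 bases before the start are shown for a receptor and a ligand that were higher in hypHSCs, *Nrp2* and *Sema4a*, and for the Eph receptor that was most abundant in qHSCs, *Epha7*. Capitals mark GC boxes (GGGCGG on either strand), the sites of Sp family factors. The window of *Nrp2* is chr1:62742226-62742475 on the plus strand, that of *Sema4a* chr3:88368490-88368739 on the minus strand, and that of *Epha7* chr4:28812881-28813130 on the plus strand.
Nrp2: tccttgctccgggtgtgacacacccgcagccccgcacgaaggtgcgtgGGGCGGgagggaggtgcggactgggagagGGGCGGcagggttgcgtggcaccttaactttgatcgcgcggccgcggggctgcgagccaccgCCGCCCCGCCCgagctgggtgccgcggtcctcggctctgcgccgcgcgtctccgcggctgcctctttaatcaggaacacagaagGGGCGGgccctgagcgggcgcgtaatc
Sema4a: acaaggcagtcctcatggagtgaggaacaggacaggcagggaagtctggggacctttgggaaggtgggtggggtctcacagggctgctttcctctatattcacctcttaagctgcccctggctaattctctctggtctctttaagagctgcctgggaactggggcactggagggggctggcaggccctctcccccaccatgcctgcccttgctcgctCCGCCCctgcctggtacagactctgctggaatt
Epha7: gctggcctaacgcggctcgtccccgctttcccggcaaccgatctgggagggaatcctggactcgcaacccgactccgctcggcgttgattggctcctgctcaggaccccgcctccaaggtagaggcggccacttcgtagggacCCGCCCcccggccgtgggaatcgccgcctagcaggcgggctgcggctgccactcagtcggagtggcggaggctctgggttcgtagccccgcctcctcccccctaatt
The *Nrp2* window held 5 GC boxes, with G and C at 72.4% of its bases, and the *Sema4a* and *Epha7* windows held 1 each, at 59.6% and 69.2%. A GC box was found in 3 of the 4 higher and 14 of the 21 lower members, and in 32.7% of all 32851 promoters of the table. The PU.1 core (GAGGAAGT, either strand), a motif of myeloid genes, was in none of the 25 windows and in 2.44% of all promoters. The TEAD motif (GGAATG) was found before *Epha2*, *Epha3* and *Plxnb1* and in 12.6% of all promoters. The AP-1 motif (TGANTCA) was found before *Sema4c*, against 6.75% of all promoters, and the E-box CACGTG before *Robo2* and *Sema6d*, against 6.02%. The homeodomain motif TAATTA was in none of the 25 windows and in 4.84% of all promoters. A match describes letters in these windows and is not a measured binding site.

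The deposited values are read counts divided by a size factor per library, called normalized counts here, and multiplying back gave whole reads for 100% of values within 0.02 of a read. Each hypHSC library held 30534719 to 43283589 reads on such named entries and each qHSC library 35640104 to 47317028. At this depth 3 reads, the floor of detection used here, were worth 2.25 to 4.54 normalized counts, and intervals and floors cover counting error alone. Macrophage genes set the groups apart: all 12 core macrophage markers were higher in hypHSCs, and their summed normalized counts were 1108914 to 1590141 in hypHSCs and 5733 to 127705 in qHSCs, where qHSC 4 (127705) and qHSC 1 (55447) stood above the other 3 (5733 to 12129). Of 10 markers of quiescent HSCs, 9 were lower in hypHSCs, with sums of 8293 to 22106 against 804914 to 1470398. The Schwann cell markers *Sox10*, *Cdh19* and *Foxd3* had no read in any library. Of the other tested markers, those of cholangiocytes (4 of 4), neutrophils (5 of 5), portal fibroblasts (3 of 4), mesothelial cells (2 of 3), Kupffer cells (3 of 6) and B cells (1 of 2) were higher, and of 9 sinusoidal endothelial markers 3 were higher and 2 lower. None of the hepatocyte or T and NK cell markers was called, and of 8 activated HSC markers 2 were higher and 1 lower. The part of these cells in the values of the members was not tested. In such bulk RNA, fewer cells of a type and less RNA per cell cannot be told apart.

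At least 1 read was found for 68 of the 72 members. *Epha5*, *Epha6*, *Epha10* and *Ntn5* had none. Of the 72, 46 had at least 10 normalized counts in at least 5 libraries and entered the comparison of all 14630 such genes on log2(normalized count + 1) with limma. A differentially expressed gene (DEG) differed by 1 or more on the log2 scale in either direction, at a Benjamini-Hochberg adjusted p of 0.05 or less. By this rule 6 members were higher in hypHSCs and 23 were lower, against 17.8% of all tested genes called higher and 21.7% called lower (39.5% in either direction). The 6 include *Nrp2* and *Plxna2*, which reached 10 normalized counts in hypHSCs alone and so could enter the test only by differing. Only 8 of the 23 lower and 2 of the 6 higher members reached 10 normalized counts in all 10 libraries. The other called members could pass this filter through the group where they were higher. *Ephb2*, *Sema3f* and *Sema6c*, for example, reached it in 5 qHSC libraries and 1 hypHSC library. With no fold criterion 1 more member, *Nrp1*, passed, against 48.0% of all tested genes. The median log2 fold change was -1.71 over the 46 tested members and -0.20 over all tested genes. All 23 lower members and 4 of the 6 higher members had groups that did not overlap, a pattern that 22.0% of all tested genes showed toward lower values and 17.6% toward higher values. For each of these 27 genes the exact two-sided permutation p was 0.00794, the smallest that 5 libraries against 5 can give. Groups that do not overlap always give this p, so it adds nothing to the lack of overlap. Among the lower members the means of the groups differed up to 41.6-fold, for *Sema6d*. With qHSC 1 and qHSC 4 left out, 7 members were higher and 18 were lower.

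**Figure D1:**
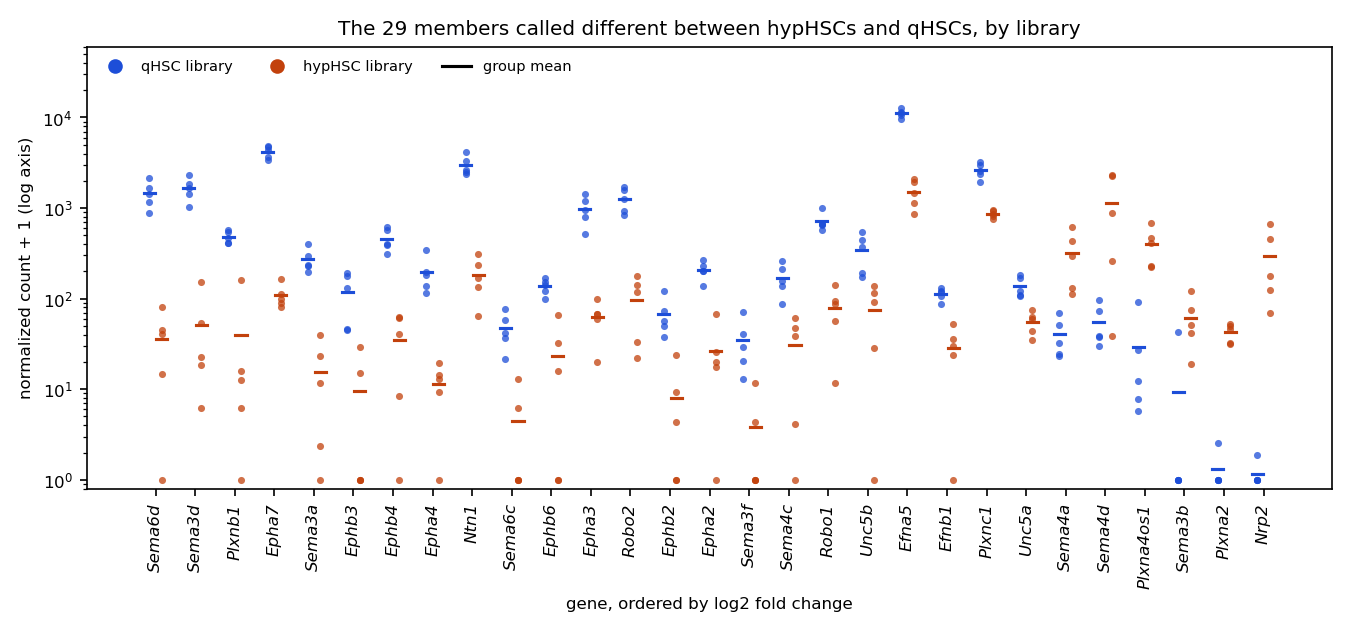
Normalized count + 1 (log axis) of the 29 members that were DEGs, in each of the 5 qHSC libraries (blue points) and 5 hypHSC libraries (orange points), with bars at the group means and genes ordered by log2 fold change. The groups overlapped for *Sema4d* and *Sema3b* and for no other gene shown.

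**Figure D2:**
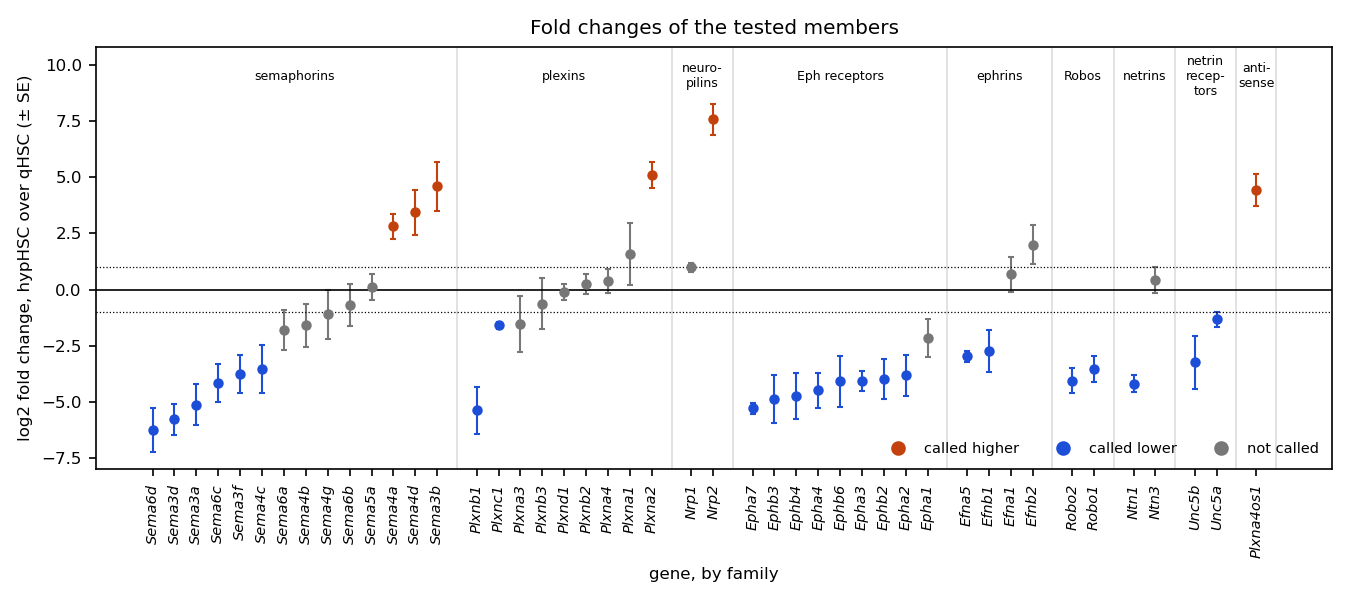
Log2 fold change, hypHSC over qHSC, with its limma standard error for 45 tested members by family (*Unc50* is not shown), with dotted lines at 1 and -1. Of 9 Eph receptors 8 were called lower and none higher, while the semaphorins held 3 higher and 6 lower members.

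Among the ligands, semaphorins moved in both directions: of 20 semaphorin genes, all with reads, 14 were tested, 6 were lower, 3 were higher and 5 were not called. The secreted *Sema3d* (chromosome 5, 12433132 to 12638910) had 1821, 2300.5, 1039, 1433 and 1678 normalized counts in qHSC 1 to 5 and 17.5, 21.7, 52.4, 5.25 and 151 in hypHSC 1 to 5. Every hypHSC library was thus far below every qHSC library, with hypHSC 5 the nearest, and the log2 fold change was -5.77 (SE 0.70, adjusted p = 5.7e-05). The transmembrane *Sema6d* (chromosome 2, 123931886 to 124509709) had 1678, 2154, 878, 1447 and 1178 in qHSCs and 44.5, 39.3, 79.0, 0 and 13.6 in hypHSCs, for a log2 difference of -6.25 (SE 0.99, adjusted p = 0.000368). *Sema3a* (chromosome 5, 13446751 to 13653453), which repels growth cones through neuropilin 1, had 292, 404, 198, 228 and 237 in qHSCs and 1.35, 38.3, 10.81, 22.0 and 0 in hypHSCs, for a log2 fold change of -5.12 (SE 0.92, adjusted p = 0.000845). The other lower semaphorins were sparser, with qHSC means of 169 for *Sema4c*, 46.1 for *Sema6c* and 33.8 for *Sema3f*, and their log2 fold changes lay between -4.16 and -3.55. Without qHSC 1 and 4 *Sema4c* was not a DEG (adjusted p = 0.0775 with limma). In the annotation 16.8% of the *Sema4c* exon bases overlap another gene, mainly *D430040D24Rik*.

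The higher semaphorins were *Sema4d*, *Sema4a* and *Sema3b*. *Sema4d* (chromosome 13, 51839565 to 51947714), which encodes the leukocyte antigen CD100, had 892, 2249, 2289, 261 and 37.8 normalized counts in hypHSC 1 to 5 and 95.9, 72.4, 37, 37.6 and 29.2 in qHSC 1 to 5. hypHSC 2 and 3 were the highest and hypHSC 5 lay among the qHSCs. The means were 1146 ± 1072 and 54.4 ± 28.6 (SD, n = 5), with a log2 fold change of 3.44 (SE 0.9992, adjusted p = 0.0147) and an exact permutation p of 0.0238. With the 12-week hypHSC libraries alone it was 2.51 and not a DEG (adjusted p = 0.0912 with limma). In the annotation 13.7% of the exon bases of *Sema4d* overlap another gene, mainly *Secisbp2*.

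*Sema4a* (chromosome 3, 88343269 to 88368489), a transmembrane semaphorin of immune cells whose start region is printed above, had 298, 435, 617, 110.2 and 130.1 in hypHSCs and 68.8, 22.1, 23.6, 31.7 and 50.2 in qHSCs. The groups did not overlap, and the log2 fold change was 2.82 (SE 0.55, adjusted p = 0.00144). *Sema3b* had 40.4, 119, 74.0, 17.8 and 49.9 in hypHSCs and 41.6, 0, 0, 0 and 0 in qHSCs. qHSC 1 thus lay within the hypHSCs, and the log2 fold change of 4.60 (SE 1.09, adjusted p = 0.00484 with limma, exact permutation p = 0.0238) was not a DEG with DESeq2 (2.92, adjusted p = 0.123) or edgeR (2.90, adjusted p = 0.141). Among the qHSCs, qHSC 1, with the second largest macrophage marker sum, was the highest for all 3 genes (95.9 for *Sema4d*, 68.8 for *Sema4a* and 41.6 for *Sema3b*). The library with the largest sum, qHSC 4, had 37.6, 31.7 and 0, within the range of the other qHSCs. *Lyz2* made up most of the macrophage marker sum in hypHSCs (740305 to 940344 normalized counts). Single core markers varied differently between the hypHSCs. In hypHSC 1 to 5 *Csf1r* had 14052, 24497, 24120, 5275 and 1833, highest in hypHSC 2 and 3 as *Sema4d* was. *C1qc* had 9775, 5158, 4412, 9421 and 11707, lowest in hypHSC 2 and 3. The part of macrophage RNA in the hypHSC values was not tested.

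The 5 tested semaphorins that were not called had overlapping groups. *Sema6a* averaged 54.0 ± 56.3 in hypHSCs and 102 ± 30.2 in qHSCs (log2 fold change -1.82, SE 0.89, adjusted p = 0.113), and *Sema5a* at 83.6 ± 43.4 and 82.0 ± 44.3 (0.12, SE 0.58, adjusted p = 0.875). *Sema4b*, *Sema4g* and *Sema6b* had means of 21.1 to 49.1 in both groups and log2 fold changes of -1.60, -1.11 and -0.67. *Sema6a* (-2.70, adjusted p = 0.0123) and *Sema4b* (-2.53, adjusted p = 0.0242) were DEGs with limma on 3 reference genes, and *Sema6a* also without hypHSC 1 (-2.40, adjusted p = 0.0357). Of the untested semaphorins *Sema3c*, a class 3 member, had 49.9, 43.5, 16.6, 1.05 and 3.02 in hypHSC 1 to 5 and 3.41 in qHSC 2 alone. The other 5 untested semaphorins had at most 32 reads in either group.

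The semaphorins that led per transcript length differed between the groups. Summed over the semaphorins, FPKM (reads scaled by exon length and by the library's reads on named entries) was 4.46 ± 3.33 in hypHSCs and 12.4 ± 3.38 in qHSCs. *Sema3d* and *Sema6d* held 45.2% ± 3.41 and 30.8% ± 3.39 of the summed semaphorin FPKM in qHSCs (SD, n = 5) and 6.48% ± 11.8 and 1.54% ± 0.966 in hypHSCs. *Sema4d* and *Sema4a* held 39.7% ± 22.7 and 20.2% ± 2.38 in hypHSCs and 1.01% ± 0.355 and 1.08% ± 0.467 in qHSCs. The share of *Sema4a* lay between 16.9% and 23.2% in the 5 hypHSC libraries, while that of *Sema4d* fell to 4.80% in hypHSC 5, where *Sema3d* made up 27.6%.

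**Figure D3:**
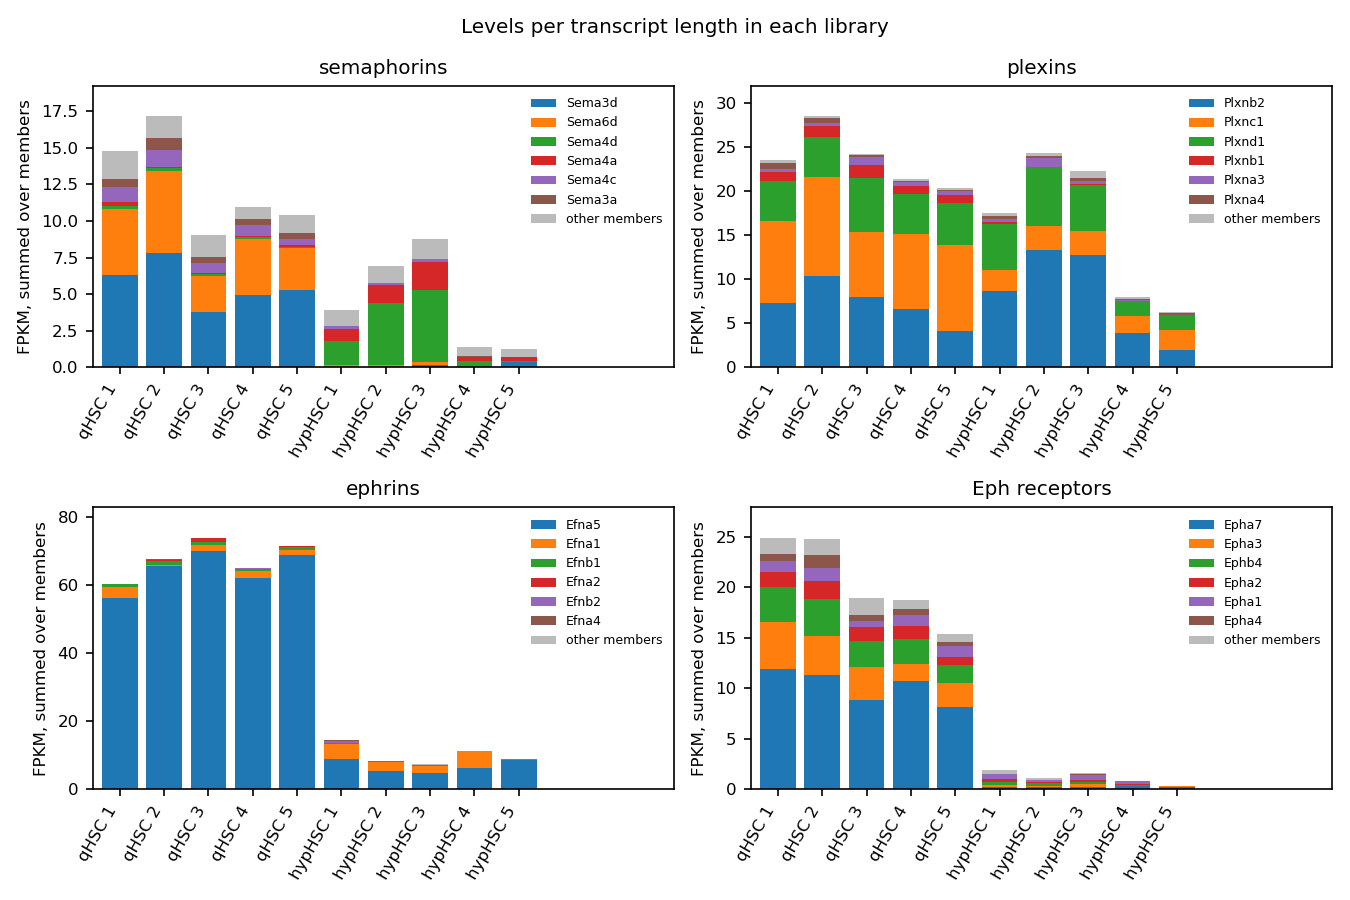
Summed FPKM of semaphorins, plexins, ephrins and Eph receptors in each library, qHSC 1 to 5 then hypHSC 1 to 5, as stacked bars with the 6 most abundant genes of each family in colour. The ephrin bars are almost entirely *Efna5* in qHSCs, the Eph bars are low in all hypHSCs, and the semaphorin bars change from *Sema3d* and *Sema6d* to *Sema4d* and *Sema4a*.

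Ephrins were led by *Efna5*, which held most of the family total in qHSCs and in hypHSCs. *Efna5* (chromosome 17, 62909952 to 63188312), an ephrin with a lipid anchor, was the most abundant member per length in qHSCs, at 64.6 ± 5.58 FPKM, and it was at 6.66 ± 1.90 FPKM in hypHSCs. It had 9551, 11382, 11325, 10596 and 12831 normalized counts in qHSCs and 1916, 1126, 866, 1459 and 2114 in hypHSCs. The libraries of each group lay close together, and the log2 fold change was -2.96 (SE 0.24, adjusted p = 3.02e-06). *Efnb1*, a transmembrane ephrin, had 106, 131, 121, 87.3 and 116 in qHSCs and 51.2, 35.2, 29.1, 23.1 and 0 in hypHSCs, and its log2 fold change of -2.73 (SE 0.94, adjusted p = 0.0317) was lost as a DEG when qHSC 1, 2, 3 or 5 was left out, with adjusted p up to 0.0632 in these limma fits.

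*Efna1* was not a DEG. It had 636, 379.9, 265, 749 and 34.8 normalized counts in hypHSCs and 344, 56.2, 185, 247 and 179.8 in qHSCs, with groups that overlapped and a log2 fold change of 0.68 (SE 0.79, adjusted p = 0.501). Without hypHSC 5, the lowest hypHSC library, it was 1.42 and a DEG (adjusted p = 0.0344 with limma). *Efnb2*, the ligand of *Ephb4*, was at 46.9 ± 47.4 in hypHSCs and 8.46 ± 5.49 in qHSCs (log2 fold change 2.00, SE 0.87, adjusted p = 0.0806). It was a DEG with DESeq2 (2.49, adjusted p = 0.011), with edgeR (2.47, adjusted p = 0.0429) and, with limma, without hypHSC 4 (2.57, adjusted p = 0.0244). The summed ephrin FPKM was 9.99 ± 2.87 in hypHSCs and 67.8 ± 5.35 in qHSCs, of which *Efna5* made up 67.8% ± 15.9 and 95.3% ± 1.46. *Efna2*, *Efna3*, *Efna4* and *Efnb3* were too sparse to be tested.

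*Ntn1* (chromosome 11, 68100190 to 68277652), the laminin-related cue that gave the netrins their name, was the second most abundant member per length in qHSCs, at 13.99 ± 3.51 FPKM. It had 3339, 4195, 2348, 2492 and 2663 normalized counts in qHSCs and 309, 233, 168, 64.0 and 133 in hypHSCs. No library of one group came near the other, and the log2 fold change was -4.19 (SE 0.38, adjusted p = 6.82e-06). The entry shared by *Ntn3* and *Tbc1d24*, whose reads cannot be assigned to either, was at 103 ± 85.2 in hypHSCs and 59.0 ± 14.05 in qHSCs (log2 fold change 0.41, SE 0.57, adjusted p = 0.582). *Ntn4* was too sparse to be tested, with means of 3.77 and 9.94.

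No Slit reached the filter. *Slit2* had 218 normalized counts in hypHSC 1, 4.99 in hypHSC 3 and no read in the other 8 libraries, at least 17.9-fold higher over the hypHSC group than the floor of 3 reads per library, a value that rests on hypHSC 1, without which the hypHSC mean of 1.25 was below the floor. *Slit3* was at 74.1, 0, 0, 9.44 and 9.07 in hypHSCs against 2 reads in all qHSCs, a ratio of 46.8 (exact binomial 95% interval 12.48 to 394). Without hypHSC 1 the ratio was 12 (2.79 to 108). *Slit1* was at 16.2 normalized counts or fewer in every library.

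Among the receptors, both neuropilins were present in hypHSCs while qHSCs held *Nrp1* alone. *Nrp2* (chromosome 1, 62742476 to 62857851), a co-receptor of class 3 semaphorins and of VEGF-C, had 178, 665, 455, 68.2 and 124 normalized counts in hypHSC 1 to 5. All 5 qHSC libraries together held 1 read, in qHSC 4, so the ratio of the groups was 1963 with an exact binomial 95% interval from 352 to 77602. The log2 fold change of 7.58 (SE 0.67, adjusted p = 6.2e-06) depends on the added count of 1. The libraries hypHSC 2 and 3 were again the highest, as for *Sema4d*.

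*Nrp1* (chromosome 8, 129085084 to 129231957) was the most abundant member per length in hypHSCs, at 16.3 ± 3.45 FPKM, and was at 10.5 ± 2.40 FPKM in qHSCs. It had 7128, 11173, 10907, 9729 and 13234 normalized counts in hypHSCs and 5607, 7119, 4011, 5097 and 4457 in qHSCs. The groups just missed each other, with hypHSC 1 next to qHSC 2. The log2 fold change was 0.99 (SE 0.21, adjusted p = 0.00239), under the fold limit of a DEG, and *Nrp1* was a DEG with DESeq2 (1.06, adjusted p = 4.76e-05) and with edgeR (1.06, adjusted p = 0.00285). The size depended on the scaling, at 0.63 at the same library total and 0.05 on 3 reference genes (adjusted p = 0.904 with limma).

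Plexins held most of the uncalled receptors: of 9 genes, all tested, 1 was higher, 2 were lower and 6 were not called, and the median log2 fold change was -0.12. *Plxna2* (chromosome 1, 194302137 to 194499161), a class A plexin, had 31.0, 51.8, 44.9, 49.3 and 30.2 normalized counts in hypHSCs and 2 reads in all qHSCs, both in qHSC 3. The ratio was 130 (exact binomial 95% interval 35.4 to 1079), for a limma log2 fold change of 5.10 (SE 0.56, adjusted p = 2.75e-05). *Nrp2* and *Plxna2* were the 2 tested members that reached 10 normalized counts in 1 group alone, so they could enter the test only by differing. In the annotation 16.8% of the *Plxna2* exon bases overlap another gene.

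*Plxnb1* (chromosome 9, 108924504 to 108948983), the receptor of *Sema4d*, had 461, 576, 544, 406 and 411 normalized counts in qHSCs and 160.3, 5.18, 14.97, 11.5 and 0 in hypHSCs. hypHSC 1 stood well above the other hypHSCs and below all qHSCs, and the log2 fold change was -5.37 (SE 1.04, adjusted p = 0.00141), or -6.33 without hypHSC 1. *Plxnc1* (chromosome 10, 94626728 to 94780707), the receptor of *Sema7a*, had 2597, 3225, 1956, 2371 and 2986 in qHSCs and 814, 957, 852, 756 and 918 in hypHSCs. It was one of the least variable members, and its log2 fold change was -1.59 (SE 0.17, adjusted p = 2.31e-05). *Sema7a* itself had 2 reads in hypHSCs and 7 in qHSCs.

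The plexins that were not called included abundant ones. *Plxnb2* had 2935, 4453, 3757, 1442 and 776 in hypHSCs and 1930.5, 2794, 2000.5, 1766 and 1200.4 in qHSCs, for a log2 fold change of 0.25 (SE 0.45, adjusted p = 0.665). *Plxnd1*, the receptor of *Sema3e*, had 1710.0, 2177, 1498, 575 and 661 in hypHSCs and 1140.4, 1165, 1515, 1177 and 1352 in qHSCs, for a log2 fold change of -0.12 (SE 0.35, adjusted p = 0.80). On 3 reference genes *Plxnd1* was lower, at -1.06 (adjusted p = 0.00567 with limma). For both genes hypHSC 1, 2 and 3 were high and hypHSC 4 and 5 were low, the same split as for *Sema4d*, *Sema4a* and *Nrp2*. *Plxna4*, a class A plexin of sensory axons, was at 245, 157, 143, 102 and 153 in hypHSCs and 347, 239, 98.4, 52.2 and 52.5 in qHSCs (log2 fold change 0.38, SE 0.55, adjusted p = 0.593). *Plxna3* was at 80.8, 301, 122, 31.5 and 0 in hypHSCs and 72.4, 88.6, 229.9, 103 and 128 in qHSCs (log2 fold change -1.54, SE 1.26, adjusted p = 0.338). *Plxna1* and *Plxnb3* had means of 12.1 to 62.6 normalized counts in both groups, and neither was called, with DESeq2 and edgeR included.

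Eph receptors were lower almost throughout. Of 14 genes 9 were tested and 8 of them were lower, with log2 fold changes from -5.29 to -3.82, and none was higher. *Epha7* (chromosome 4, 28813130 to 28967503), whose start region is printed above, had 4824, 4689.6, 3398, 4369 and 3621 normalized counts in qHSCs and 110.5, 80.8, 97.3, 165 and 87.7 in hypHSCs. The means differed 38.6-fold, with little spread in either group, and the log2 fold change was -5.29 (SE 0.22, adjusted p = 4.77e-08). It held 50.02% ± 4.85 of the summed Eph receptor FPKM in qHSCs.

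*Ephb4* (chromosome 5, 137348370 to 137376932), known from veins, had 568, 619, 391, 403 and 311 in qHSCs and 60.6, 61.1, 39.9, 7.34 and 0 in hypHSCs, for a log2 fold change of -4.73 (SE 1.02, adjusted p = 0.00271). *Epha4* (chromosome 1, 77343822 to 77491725), which binds ephrins of both classes, had 194, 348, 138, 181 and 114 in qHSCs and 13.5, 18.6, 8.32, 0 and 12.1 in hypHSCs, for a log2 fold change of -4.49 (SE 0.77, adjusted p = 0.000637). *Epha3*, a receptor of *Efna5*, was at 979 ± 346 in qHSCs and 61.7 ± 28.1 in hypHSCs (log2 fold change -4.06, SE 0.44, adjusted p = 2.46e-05). Libraries of the 2 groups did not overlap for any of these genes.

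The remaining lower Eph receptors were *Ephb3* (-4.87), *Ephb6* (-4.07), a member without kinase activity, *Ephb2* (-3.98) and *Epha2* (-3.82), with qHSC means of 117, 137, 66.6 and 207 normalized counts. *Ephb6* was not a DEG with edgeR (-2.62, adjusted p = 0.0542) or, with limma, without qHSC 1 and 4 (adjusted p = 0.0606), and 14.7% of its exon bases overlap another gene, mainly *Trpv6*. *Epha1* was at 46.4 ± 33.2 in hypHSCs and 132 ± 35.6 in qHSCs (log2 fold change -2.16, SE 0.86, adjusted p = 0.0579), and 36.9% of its exon bases overlap another gene, mainly *Zyx*, so its counts are uncertain. With limma *Epha1* was a DEG without hypHSC 1, 3 or 5, with a pseudocount of 5, at the same library total and on 3 reference genes (adjusted p of 0.00363 to 0.0428). The summed Eph receptor FPKM was 0.332 to 1.91 in hypHSCs and 15.4 to 24.9 in qHSCs. *Ephb1* had no read in hypHSCs and 0 to 29.9 normalized counts in qHSCs, at least 5.09-fold lower in hypHSCs. *Epha8* had no read in qHSCs and 9 in hypHSCs.

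*Robo1* and *Robo2*, the Slit receptors, were lower while their ligands were sparse in both groups. *Robo2* (chromosome 16, 73688733 to 75244181) had 1593, 1722, 1255, 836 and 927 normalized counts in qHSCs and 139, 116, 175, 32.5 and 21.2 in hypHSCs, for a log2 fold change of -4.05 (SE 0.56, adjusted p = 0.000148). *Robo1* (chromosome 16, 72460037 to 72844377) had 659, 1008, 658, 575 and 657 in qHSCs and 140.1, 94.2, 55.7, 87.1 and 10.6 in hypHSCs, for a log2 fold change of -3.54 (SE 0.58, adjusted p = 0.000461). Each hypHSC library was below each qHSC library for both genes. *Robo4*, known from endothelium, had no read in hypHSCs and 19.0, 2.56, 7.09, 96.7 and 0 in qHSC 1 to 5. It was at least 7.23-fold lower in hypHSCs, or at least 2.07-fold without qHSC 4. *Robo3* had reads in hypHSC 1 alone.

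Of the netrin receptors, *Unc5b* (chromosome 10, 60598389 to 60667363) had 439.9, 547, 371, 175 and 190.3 normalized counts in qHSCs and 137, 115, 90.6, 27.3 and 0 in hypHSCs. The groups did not overlap, but the log2 fold change of -3.23 (SE 1.18, adjusted p = 0.0416) was near the threshold. It was not a DEG with a pseudocount of 0.5 (adjusted p = 0.0551 with limma) or after leaving out hypHSC 4 or any qHSC library. *Unc5a* was at 137 ± 34.7 in qHSCs and 54.4 ± 15.98 in hypHSCs (log2 fold change -1.33, SE 0.35, adjusted p = 0.00849), and at an adjusted p of 0.051 with limma without qHSC 1 and 4. *Dcc*, the attractive netrin receptor, had 40.7, 17.0, 3.15, 75.3 and 13.5 in qHSCs and no read in hypHSCs, at least 8.64-fold lower, or at least 5.37-fold without qHSC 4. *Unc5c* and *Unc5d* had no more than 8 reads in either group.

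*Plxna4os1* (chromosome 6, 32488008 to 32492511) lies within *Plxna4* on the other strand. It had 464, 227, 221, 408 and 681 normalized counts in hypHSCs and 26.2, 6.82, 4.72, 90.7 and 11.2 in qHSCs, for a log2 fold change of 4.44 (SE 0.72, adjusted p = 0.000416). qHSC 4 and qHSC 1 were the highest of the qHSCs, as they were for the macrophage marker sum, and the part of macrophage RNA in this value was not tested. Strand was not kept, so its reads cannot be told apart from reads of *Plxna4* introns. In hypHSCs it was at 4.53 ± 1.76 FPKM, behind *Nrp1*, *Plxnb2*, *Unc50* and *Efna5* among the members. *Unc50* was at 549.8, 509, 579, 1630.3 and 2656 in hypHSCs and 761, 982, 1092, 857 and 1543 in qHSCs (log2 fold change -0.12, SE 0.46, adjusted p = 0.839), with hypHSC 4 and 5 above the other hypHSCs.

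**Figure D4:**
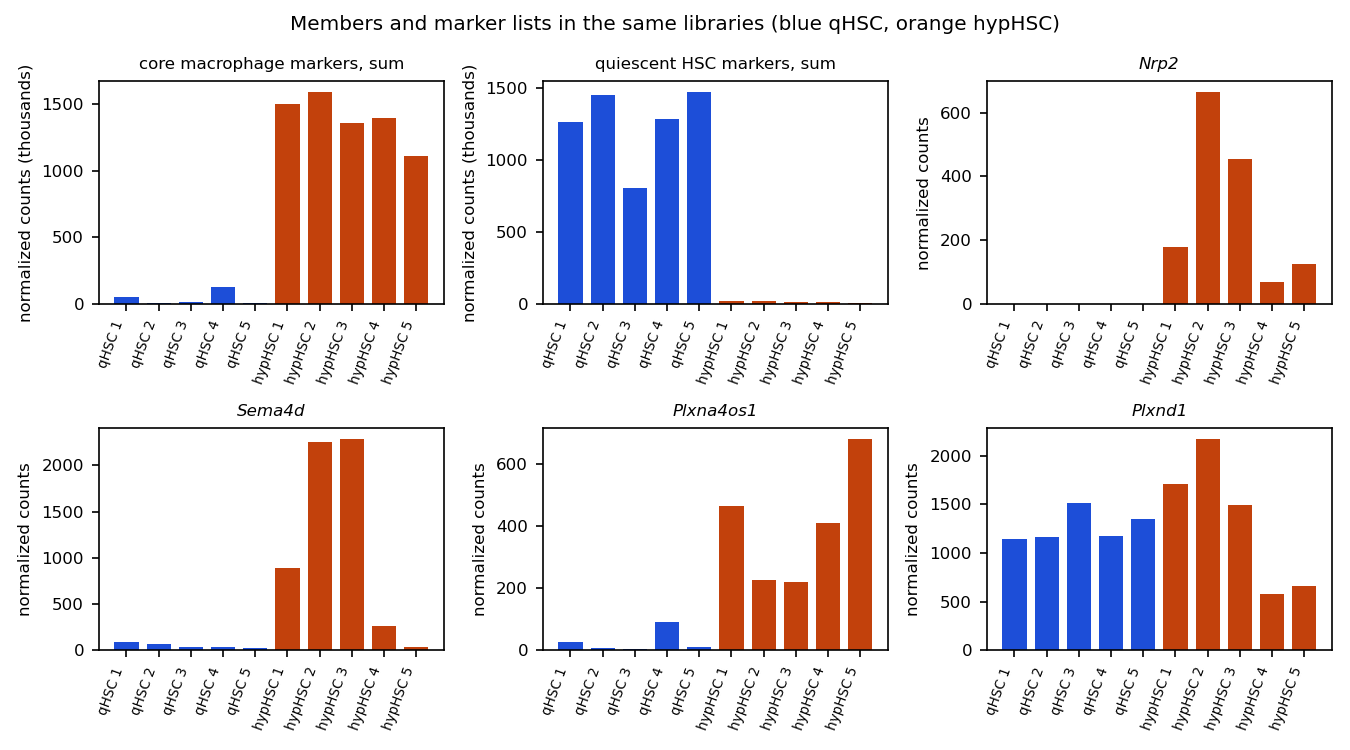
Normalized counts in each library (blue qHSC, orange hypHSC) of the summed core macrophage and quiescent HSC markers (their axis in units of 1000) and of *Nrp2*, *Sema4d*, *Plxna4os1* and *Plxnd1*. The marker sums separate the groups, qHSC 4 is the highest qHSC for macrophage markers and for *Plxna4os1*, and *Nrp2*, *Sema4d* and *Plxnd1* are lower in hypHSC 4 and 5 than in hypHSC 1 to 3, most narrowly *Nrp2* (124 in hypHSC 5, 178 in hypHSC 1).

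Ligands and receptors were then set side by side in 71 textbook pairs. A pair was taken as present where each gene had over 3 reads in every library of a group, which held for 25 pairs in qHSCs, 9 in hypHSCs and 8 in both. Pairs present in qHSCs and lost from this count in hypHSCs included *Efna5* with *Epha2* and *Epha4*, *Ntn1* with *Unc5b* and *Dcc*, and *Sema4d* with *Plxnb1*. The rule lets a single library remove a pair. *Epha2*, *Unc5b* and *Plxnb1* failed it in hypHSC 5 alone and *Epha4* in hypHSC 4 alone, each with 0 there. *Dcc* had no read in any hypHSC library. *Sema3b* with *Nrp2* was present in hypHSCs and not in qHSCs. In 8 pairs both genes were lower, such as *Efna5* with *Epha7* and *Ntn1* with *Unc5a*, and in 1 pair, *Sema3b* with *Nrp2*, both were higher. *Sema3b* was not a DEG with DESeq2 or edgeR, and its value in qHSC 1 lay within the hypHSCs. In 3 pairs the genes moved in opposite directions: *Sema4a* and *Sema4d*, both higher, with *Plxnb1*, and *Sema3f*, lower, with *Nrp2*. Pairs share genes, and presence of 2 transcripts in one library says nothing on contact between cells.

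Of 55 listed intracellular effectors of these receptors 49 were tested, 16 were higher and 11 were lower, with a median log2 fold change of 0.35. These are 32.7% and 22.4% of the tested effectors, against 17.8% and 21.7% of all tested genes. The list was chosen with earlier results of these data known, so these shares are descriptions and not an independent test. The higher effectors were led by *Vav3* (6.15, SE 0.80), an exchange factor for small GTPases, *Evl* (5.43, SE 0.60), an Ena/VASP actin regulator, the kinases *Pak1* (2.85, SE 0.37) and *Fyn* (1.98, SE 0.35), and the lipid transfer protein *Pitpna* (1.63, SE 0.33). Normalized counts of *Evl* were 7421 ± 2221 in hypHSCs and 247 ± 245 in qHSCs. For *Evl*, qHSC 4 (655) and qHSC 1 (275) were the highest of the qHSCs, as they were for the macrophage marker sum. The part of macrophage RNA in the effector values was not tested. The lower ones included *Farp1* (-4.02, SE 0.47), an exchange factor downstream of class 6 semaphorins and plexin A, *Rnd3* (-3.92, SE 0.19), an atypical small GTPase, *Dpysl2* (-3.75, SE 0.99), which encodes the semaphorin mediator CRMP2, and *Vav2* (-3.18, SE 1.15), which kept the call in 4 of the 10 fits without a library. This balance depended on the scaling, as did that of all genes. On 3 reference genes 4 effectors were higher and 23 lower, against 1472 and 6989 of all 14630 tested genes. At the same library total 9 effectors were higher and 15 lower, and the all-gene median log2 fold change moved by -0.35.

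Co-receptors, other binding partners and processing enzymes made a second list of 39 genes, of which 28 were tested, 14 were higher and 6 were lower, with a median log2 fold change of 1.03. The 6 lower genes are 21.4% of those tested, against 21.7% of all tested genes, and the 14 higher genes 50%, against 17.8%. This list too was chosen with earlier results of these data known, so its shares are descriptions and not an independent test. On 3 reference genes 10 were higher and 9 lower, against 1472 and 6989 of all 14630 tested genes. The largest rises were those of *Trem2* (10.06, SE 0.75) and *Tyrobp* (5.30, SE 0.76), which form a receptor complex on myeloid cells and bind semaphorin receptors, of the HGF receptor *Met* (7.52, SE 0.78), a partner of class B plexins, and of *Flrt3* (6.94, SE 0.82) and *Flrt2* (6.75, SE 0.63), ligands of Unc5 receptors. Normalized counts of *Flrt2* were 627 ± 203 in hypHSCs and 6.98 ± 7.71 in qHSCs. *Tyrobp* is also on the core macrophage list. *Itga1* (-4.63, SE 0.26), *Neo1* (-2.67, SE 0.46), which encodes the *Dcc* relative neogenin, and *Vegfc* (-2.63, SE 0.45), a ligand of *Nrp2*, were lower. *Cd72*, which encodes a lymphocyte and myeloid receptor of *Sema4d*, was higher (4.64, SE 0.32, adjusted p = 9.21e-07), so that of the *Sema4d* receptors *Plxnb1* was lower, *Plxnb2* was not called and *Cd72* was higher.

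**Figure D5:**
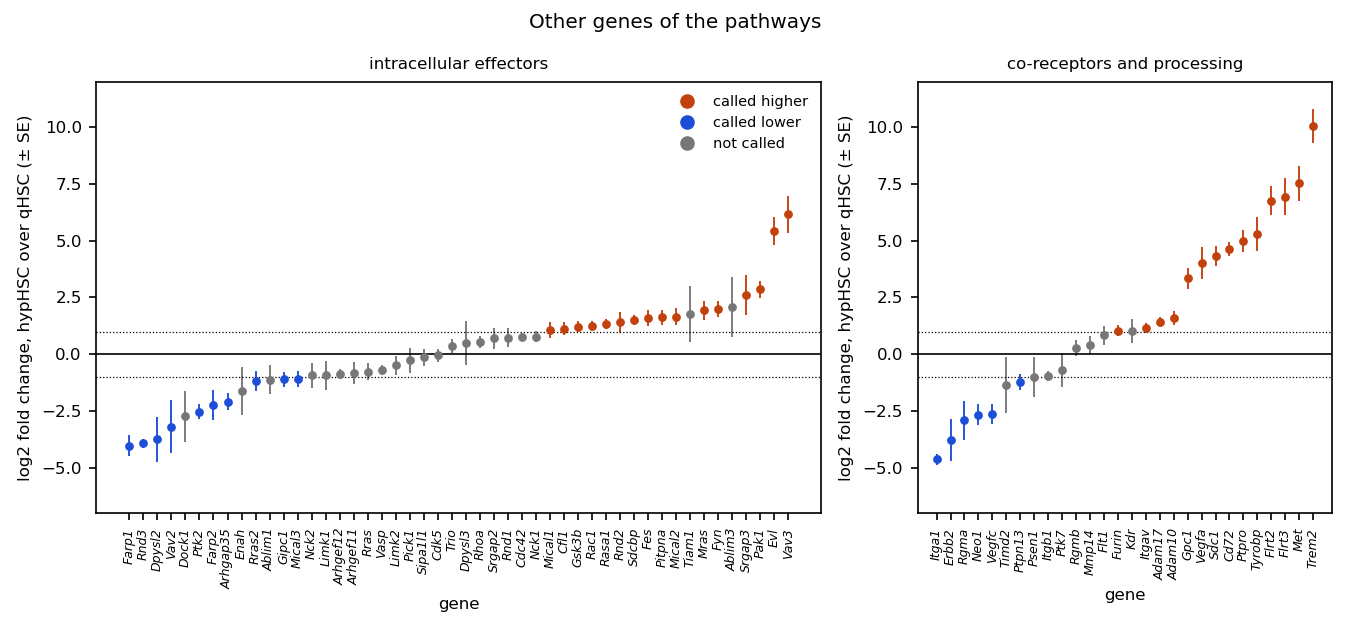
Log2 fold change, hypHSC over qHSC, with its limma standard error for the tested intracellular effectors (left, 1 gene not shown) and the 28 tested co-receptors and processing genes (right), ordered by value, with dotted lines at 1 and -1. Effectors shown spread from -4.02 for *Farp1* to 6.15 for *Vav3*, and co-receptors reach 10.06 for *Trem2*.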

How the data were processed

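RNA sequencing libraries of 5 hypHSC and 5 qHSC preparations were compared. The authors deposited 1 signal value for each gene and library: reads mapped to mm39 with STAR were assigned to genes of the FAST DB annotation by featureCounts (Subread 1.5.0, as the submitters' processing notes give it), and the counts were divided by DESeq2 size factors. Libraries were made with oligo-dT priming and template switching, and strand was not kept. All 10 value columns were used. Of 62322 entries the 37089 without a symbol were left out of the main comparison. Recovered reads, whole within 0.02 of a read, gave depth, FPKM (exon lengths from GENCODE by symbol), DESeq2 (1.42.0) and edgeR (4.0.16) fits, which were alternatives to the main test, limma (3.58.1, R 4.3.3) with an intensity trend and Benjamini-Hochberg adjustment over 14630 genes. The study used DESeq2, and limma was used because the deposited values are not raw counts. Exact two-sided permutation tests ran over 252 arrangements with scipy 1.17.1. Genes at 3 reads or fewer were at the floor.

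Named with every library are, per family, up to 3 largest rises and falls among DEGs whose mean reached 100 normalized counts, the 10 members with the highest FPKM in each group and uncalled members with such a mean. In the 2 pathway lists the 5 largest rises and falls by the same mean are named, except 1 gene whose result is not reported here. *Cd72*, the single macrophage markers *Csf1r*, *C1qc* and *Lyz2*, and the sparse members described outside this rule were chosen after their values were seen. Members and lists were chosen with earlier results of these data known.

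Alternatives were other pseudocounts (0.5, 5), filters, scalings (same total, same upper quartile, TMM, or the reference genes *Hprt*, *Pgk1* and *Actb*), tools, entries without a symbol included, 12-week hypHSCs only, a replicate block and each library left out. Leaving out qHSC 1 and 4 together was added after seeing the data. Scripts were tested on simulated data. Positions are on GRCm39, as deposited.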

Additional observations from a re-analysis of the deposited data

Results flagged for a closer look

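For the 46 tested members, in 90 groups of 5 libraries, the highest and the lowest library were compared with the others by Dixon's gap test. Chance alone marks about 1 group in 20, and 6 stood out. The qHSC groups of *Nrp2* and *Plxna2*, in which no library was above the floor of detection, were not examined. *Plxnb1* was at 160.3 normalized counts in hypHSC 1 against 0 to 14.97 in the other hypHSCs. *Sema3b* was at 41.63 in qHSC 1 against 0 in the other qHSCs. *Plxna4os1* was at 90.7 in qHSC 4 against 4.72 to 26.2 in the others, where qHSC 4 also had the largest macrophage marker sum (127705). *Robo1* was at 1008 in qHSC 2 against 575 to 659 in the others. *Sema4g* was at 88.12 in hypHSC 4 against 1.66 to 7.25 in the others, and *Plxna1* at 33.23 in qHSC 2 against 0 to 9.41 in the others.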

How the results depend on the processing

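Of the 29 DEGs among the members, 27 kept the call whichever library was left out and 22 kept it under every alternative in which they were tested. Members called higher numbered 4 to 8 and lower 18 to 27 over the alternatives. *Efnb1*, *Ephb6*, *Sema4c*, *Unc5a* and *Unc5b* lost the call without qHSC 1 and 4, and no called member changed direction. Under the other scalings (3 reference genes, same total, same upper quartile, TMM) each of the 29 kept its call. All-gene calls were 1472 higher and 6989 lower on 3 reference genes and 3911 and 5380 with entries without a symbol, where more genes were tested. Against the main scaling, the all-gene median log2 fold change moved by -0.93 on 3 reference genes, -0.35 at the same total, 0.12 at the same upper quartile and 0.20 with DESeq2 or edgeR. Effectors called higher numbered 4 on 3 reference genes and 9 at the same total. Effectors called lower numbered 23 on 3 reference genes, 7 with edgeR, 6 without qHSC 1 and 4 and 7 to 12 when a library was left out, the lowest without hypHSC 4. The co-receptor counts stayed within 1.5 times under each alternative.

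Uncalled members that changed sign were *Efna1* (-0.26), *Plxna4* (-0.55) and *Ntn3* (-0.52) on 3 reference genes, *Plxnb2* (-0.69 on 3 reference genes, -0.21 with 12-week hypHSCs, -0.10 at the same total), *Plxnd1* (0.094 with DESeq2, 0.096 with edgeR, 0.0042 at the same upper quartile, -0.35 to 0.13 when a library was left out), *Plxnb3* (0.39 with DESeq2 and edgeR, 0.52 with 12-week hypHSCs, -1.23 to 0.56 when a library was left out), *Sema5a* (-0.80 on 3 reference genes, -0.062 with 12-week hypHSCs, -0.23 at the same total, -0.20 without qHSC 1 and 4, -0.31 to 0.36 when a library was left out), *Sema6b* (-1.17 to 0.0498 when a library was left out) and *Unc50* (0.28 with DESeq2, 0.27 with edgeR, 0.42 with 12-week hypHSCs, -0.50 to 0.094 when a library was left out). The cause of these changes was not tested. With the replicate number as a block 6 members were higher and 23 lower, and no member call changed. Same-number libraries deviated together with correlations of 0.00815 to 0.129, and 1 of 5 hypHSCs correlated best with its own number. This check showed no clear pairing by number, and weak correlations cannot settle whether the samples were paired. Lower members rest on few reads in hypHSCs: 14 of the 23 had a hypHSC library at 0, in 11 of them hypHSC 5, the library with the smallest size factor.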
